A study of Caenorhabditis elegans with 2 samples.

Results

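The C. elegans homeobox genes that carry the name ceh are described here by the CEH-91 ChIP-seq peaks at their promoters. The ceh prefix followed by a number picked out 63 genes of Ensembl release 115 on the WBcel235 assembly, all protein-coding, of 19973 protein-coding genes on the 6 nuclear chromosomes. The tagged gene, ceh-91, is among them. Of the 63 genes, 18 (28.6%) lie on X, against 13.7% of all protein-coding genes. A peak was given to a gene when its summit fell in a promoter window reaching 1000 bp before and 200 bp past any of the gene's transcript starts, and any tRNA gene start nearer to the summit was recorded. The names were taken as they stand, and the proteins were not searched for a homeodomain.

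Chromatin immunoprecipitation with an antibody against GFP was followed by sequencing (ChIP-seq) in whole young adult worms of strain RW12305, in which CRISPR placed a TY1::EGFP::3xFLAG tag at ceh-91 on chromosome III. Both samples are biological replicates of this 1 group, collected at an age of 62.5 hours after synchronisation as bleached, starved L1 larvae, and sonicated to a labelled size range of 200 to 800. No untagged or mock-treated group is among the samples, and 1 control alignment served both replicates. Since whole worms were used, binding in a few cells and weak binding in many cells cannot be told apart. Read counts are not part of these lists, and sequencing depth is therefore unknown. The labels do not say how the worms of each replicate were grown apart.

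Homeodomain proteins are transcription factors that bind short AT-rich sites, many of them built on a TAAT core, through a helix lying in the major groove of DNA. In C. elegans they are best known for setting the identity of neurons, pharyngeal cells and body regions, and homeobox genes often stand under the control of other homeobox genes or of their own product.

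The stretches under the summits that carry the description are given next, 5′ to 3′ on the strand of the ceh gene for ceh-91, ceh-92 and ceh-100 and on the plus strand for ceh-43, read from the RefSeq copy of WBcel235. The ceh-91 stretch is chrIII:11615809-11615929 (plus strand), under the strongest summit upstream of the tagged gene. That of ceh-92 is chrIII:11581537-11581599 (plus strand), which ends at the base before the annotated transcript start. For ceh-100 it is chrII:12604063-12604183 (minus strand), and for ceh-43 chrIII:4450316-4450436 (plus strand). Capitals mark TAAT read on either strand in the ceh-91, ceh-92 and ceh-100 stretches, and the annotated tRNA gene in the ceh-43 stretch.
ceh-91: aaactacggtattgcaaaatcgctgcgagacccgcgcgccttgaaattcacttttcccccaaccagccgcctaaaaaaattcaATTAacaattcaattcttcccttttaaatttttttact
ceh-92: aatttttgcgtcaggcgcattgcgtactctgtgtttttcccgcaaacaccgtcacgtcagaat
ceh-100: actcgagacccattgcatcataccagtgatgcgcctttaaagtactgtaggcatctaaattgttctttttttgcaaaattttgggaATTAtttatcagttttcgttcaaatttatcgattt
ceh-43: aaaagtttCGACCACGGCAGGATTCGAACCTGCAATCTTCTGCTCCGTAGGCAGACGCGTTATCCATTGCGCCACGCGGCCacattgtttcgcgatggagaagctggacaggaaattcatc
The ceh-91 and ceh-100 stretches hold 1 TAAT each, and the ceh-92 stretch holds none. In the ceh-43 stretch most of the sequence under the summit belongs to the tRNA gene.

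The tagged gene had ranked promoter peaks in all 4 lists and a listed one in none. Each ranked list gives a signal per peak and a global irreproducible discovery rate, which is low where a peak ranks high in both inputs compared. A peak in the authors' thresholded list is called listed, and all listed peaks had a global rate of at most 0.01. The conservative comparison set replicate 1 against replicate 2, while a pooled comparison and 1 comparison within each replicate were also deposited. Signal has a scale of its own in each replicate. Between the conservative and pooled lists, ceh promoter peaks at the same coordinates had the same signal.

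At ceh-91 (WBGene00013425, chrIII:11616746-11623994, plus strand), the strongest promoter summit lay 877 bp upstream of the start. Its signal was 73.1 in the conservative and in the pooled list, 55.2 in replicate 1 and 19 in replicate 2. Replicate 1 thus held the peak above 95.7% of its ranked peaks, and replicate 2 above 73.8%. The global rate was 0.263 in the conservative list, 0.0161 in the pooled list, 0.0286 in replicate 1 and 0.677 in replicate 2. The local rate, the estimate for that peak alone, was 0.661 in the conservative list and 0.0997 in the pooled list. The summits of the replicates stood 891 bp upstream in replicate 1 and 771 bp upstream in replicate 2, so they were not at the same base. A weaker peak lay on the transcript start itself, 23 bp inside the gene, with a signal of 32.4 in the conservative list, 18.4 in replicate 1 and 15.2 in replicate 2. Across the gene and 2000 bp to each side, 7 ranked summits were found in the conservative list, 9 in the pooled list, 6 in replicate 1 and 4 in replicate 2, and 0 of these were listed. The strongest inside the gene, 6610 bp from the start, had a signal of 47.4 and a rate of 0.694 in the conservative list.

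**Figure D1:**
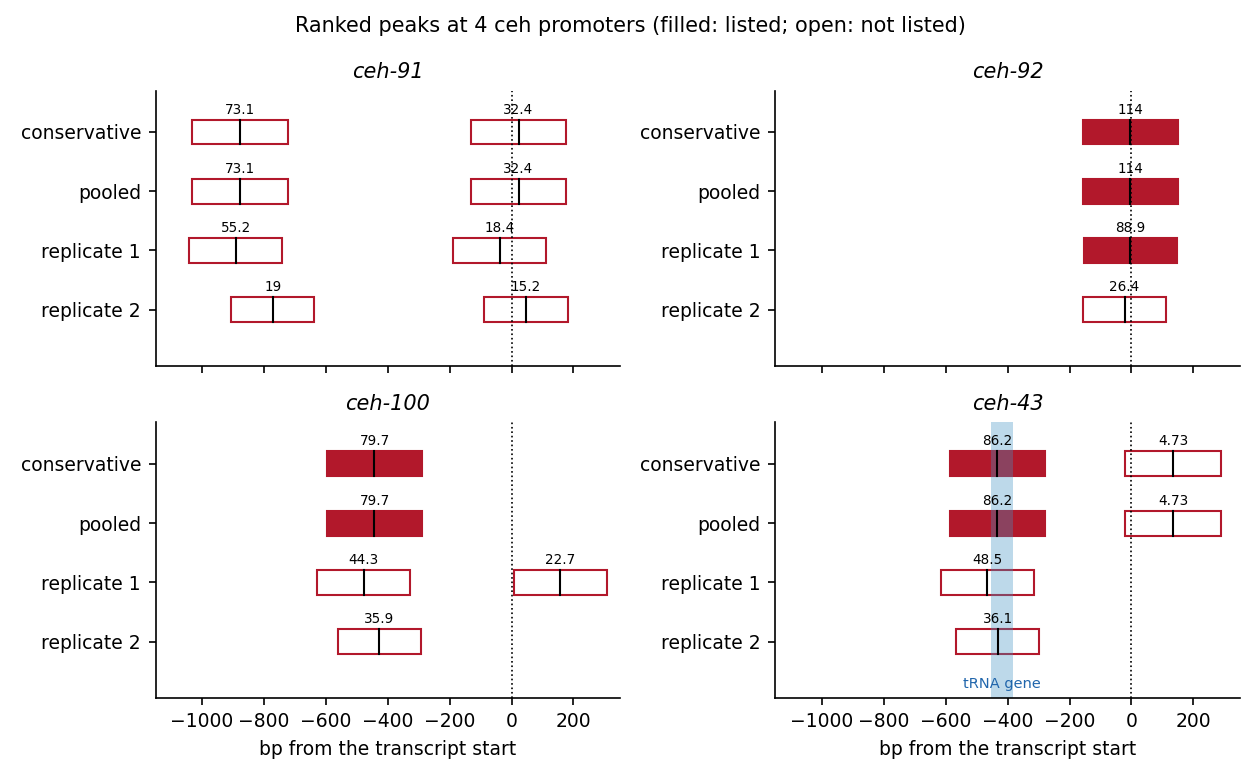
Ranked peaks at 4 ceh promoters by distance from the transcript start (bp, dotted line at 0, upstream to the left), 1 row per list, with the signal of each peak above it, the summit as a black tick and the annotated tRNA gene in blue. The peak of ceh-92 sits on the start and is listed in 3 of 4 lists. The strongest peaks of ceh-100 and ceh-43 are listed in the conservative and pooled lists only, and those of ceh-91 are open in all 4.

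In the conservative, pooled and replicate 1 lists the strongest ceh promoter peak belonged to ceh-92, whose start lies 35146 bp from that of ceh-91 on the same chromosome and strand. At ceh-92 (WBGene00013431, chrIII:11581600-11589133, plus strand) the summit was 3 bp upstream of the start, in a peak at chrIII:11581442-11581751. The signal was 114 in the conservative and pooled lists, above 98.2% and 98.0% of their ranked peaks, 88.9 in replicate 1 and 26.4 in replicate 2. The peak was listed in the conservative list at a rate of 0.00734, in the pooled list at 6.5e-04 and in replicate 1 at 4.1e-04. In replicate 2 its rate was 0.873, it was not listed, and ceh-43, ceh-100 and ceh-2 had stronger peaks. The same summit also fell in the promoter window of Y66D12A.6, although the ceh-92 start was the nearest of any transcript. Among the 100 ranked peaks closest to it in conservative signal, 92% were listed and the median rate was 7.0e-04, lower than that of the ceh-92 peak.

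The strongest listed summits of ceh-43 and ceh-2 lay on tRNA genes. The first, ceh-43, is the worm Distal-less gene and is needed for dopaminergic neurons, and the other, ceh-2, is related to Drosophila empty spiracles and acts in pharyngeal neurons. At ceh-43 (WBGene00000463, chrIII:4446638-4449943, minus strand) the summit was 433 bp upstream of the start and 20 bp from the start of the tRNA gene WBGene00014267 (chrIII:4450324-4450396, minus strand). The signal was 86.2 in the conservative list, 48.5 in replicate 1 and 36.1 in replicate 2, above 94.3% and 96.3% of the ranked peaks of these replicates. The rate was 0.0036 in the conservative list and 0.00242 in the pooled list, both listed, against 0.0514 in replicate 1 and 0.0389 in replicate 2, neither listed. In both replicates the summit was again nearer to the tRNA gene, at 13 and 21 bp. A second ceh-43 peak, unlisted, had its summit 134 bp inside the gene, with ceh-43 as the nearest start. Its signal was 4.73 and its rate 0.253 in the conservative list.

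At ceh-2 (WBGene00000429, chrI:6046788-6050451, minus strand) the summit was 775 bp upstream of the start and 10 bp from the start of the tRNA gene WBGene00022946 (chrI:6051155-6051236, minus strand). The signal was 82.9 in the conservative list, 53.4 in replicate 1 and 30.8 in replicate 2. The conservative rate was 0.00419 and the pooled rate 0.00744, while replicate 1 gave 0.0542 and replicate 2 gave 0.38. A second listed peak of ceh-2, with its summit 995 bp upstream and 210 bp from the tRNA start, outside the tRNA gene, had a signal of only 6.71 and a rate of 0.00418. It overlapped the stronger peak, and both lay over the same peaks of the replicates.

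For 2 of the 4 listed ceh genes (50%) every listed summit was nearer to a tRNA start than to the gene, against 22 of 1473 listed protein-coding genes (1.49%). Over all ranked summits the count was 1 of 33 ceh genes, against 76 of 10400 protein-coding genes (0.731%). Here ceh-43 drops out, because its second, unlisted summit was nearer to its own start. That second summit was still only 204 bp from the start of another tRNA gene, WBGene00014268. A ranked summit with no tRNA start within 300 bp was found at 31 of 33 ceh genes, against 10340 of 10400 protein-coding genes. The tRNA genes and the ceh genes beside them cannot be told apart as the place of binding from these peaks.

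The remaining listed member, ceh-100 (WBGene00012584, chrII:12582178-12603680, minus strand), had its summit 443 bp upstream, in a peak at chrII:12603968-12604277. The nearest transcript start was that of lips-15, 263 bp away, whose promoter window held the same summit. The signal was 79.7 in the conservative list, 44.3 in replicate 1 and 35.9 in replicate 2. This made it a peak of like rank in the replicates, above 92.8% and 96.2% of their ranked peaks. The rates were 0.00598 in the conservative list and 0.00508 in the pooled list, both listed, against 0.202 in replicate 1 and 0.0559 in replicate 2. When each summit was given only to the nearest transcript start of any kind, ceh-92 was the 1 ceh gene left with a listed summit. The background over protein-coding genes was then 11%, against 14.2% by the promoter window.

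Of the ceh genes not listed, the lowest conservative rate was that of ceh-49, a CUT-class homeobox gene. Its summit 415 bp upstream had a signal of 56.9 and a conservative rate of 0.0467, still well above 0.01. Its rate was 0.754 in the pooled list, 0.826 in replicate 1 and 0.527 in replicate 2. In the conservative list the nearest on the listed side was ceh-92 at 0.00734. Signal alone did not set this order, because ceh-91 (73.1) and ceh-99 (63.3) had higher signals than ceh-49 and higher rates. At ceh-99 the signal was 52.3 in replicate 1, above 95.2% of ranked peaks, and replicate 2 held no ranked summit there. The conservative rate of ceh-99 was 0.803, the pooled rate 0.044 and the replicate 1 rate 0.0381, and the summit also lay in the window of srh-70. Of the 100 ranked peaks nearest in conservative signal, 63% were listed around ceh-43, 47% around ceh-2, 48% around ceh-100, 18% around ceh-91, 1% around ceh-99 and 0% around ceh-49. The ceh-91 peak thus lay in a range of signal where few peaks were listed, and its rate was above the median of 0.0314 among its neighbours.

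**Figure D2:**
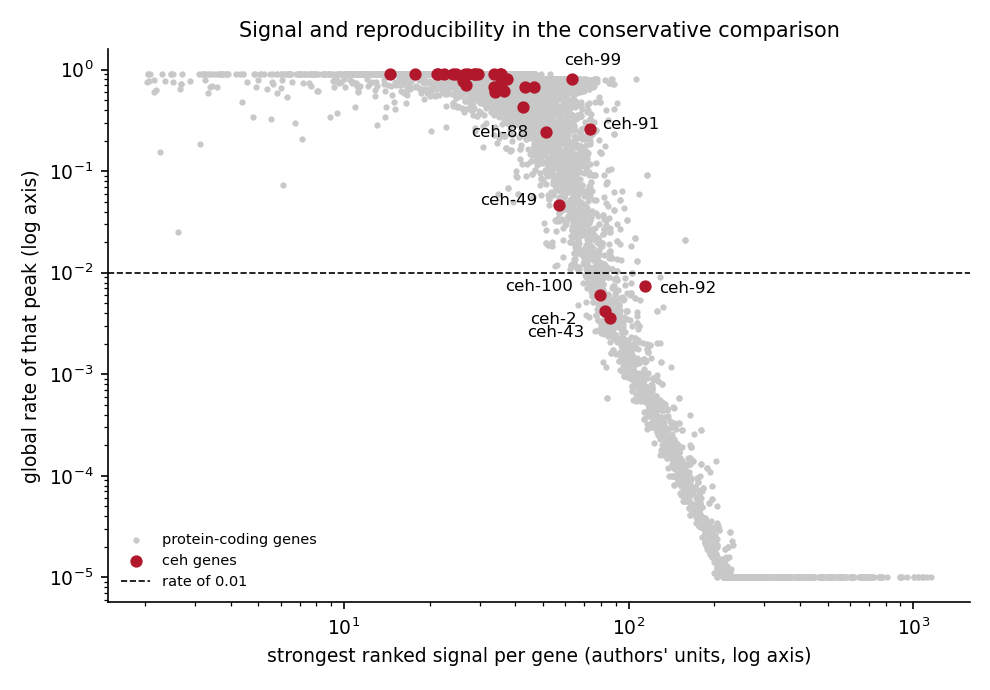
Strongest ranked signal of each gene in the conservative comparison (horizontal, log axis) against the global rate of that peak (vertical, log axis), for 33 ceh genes in red over 10400 protein-coding genes in grey, with the rate of 0.01 as a dashed line. The peaks of ceh-92, ceh-43, ceh-2 and ceh-100 fall below the line, and ceh-99 and ceh-91 lie above it, at rates of 0.803 and 0.263, among other genes of like signal and rate.

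Over all lists, 33 of the 63 ceh genes (52.4%) had a ranked promoter summit in the conservative list, against 52.1% of protein-coding genes. In the pooled list 32 had one (50.8%, against 50%), in replicate 1 29 (46.0%, against 45.1%) and in replicate 2 26 (41.3%, against 47.7%). Listed summits were found at 4 of the 33 ceh genes in the conservative list (12.1%, background 14.2%) and at 4 of the 32 in the pooled list (12.5%, background 15.3%). Replicate 1 listed 1 of 29 (3.45%, background 13.4%) and replicate 2 listed 0 of 26 (background 11.2%). Of all 63 ceh genes, 6.35% were listed in the conservative list, against 7.37% of all protein-coding genes. The conservative and pooled shares lie close to the background. The counts are small, and the same 4 genes make up the conservative and pooled counts, with the same signal values in both lists.

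The median of the strongest signal per gene was 34 in the conservative list for ceh genes (14.5 to 114), against 38.4 for protein-coding genes. It was 33.9 against 39.3 in the pooled list, 25.7 against 28.5 in replicate 1 and 17 against 17.7 in replicate 2. The conservative and pooled medians are not independent, since ceh peaks at the same coordinates carry the same signal in both. Over all chromosomes the ceh median was thus the lower, but the order was not the same within chromosome classes. In replicate 2 it was 19 against 18.1 on the autosomes (23 ceh genes) and 16.2 against 15.6 on X (3 ceh genes). In the conservative list it was 33.8 against 39.1 on the autosomes (27 ceh genes) and 34.8 against 34.4 on X (6 ceh genes). The gaps on X are small and rest on few genes. The strongest ceh signal, 114, compares with 1151 at the strongest protein-coding promoter of the conservative list.

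**Figure D3:**
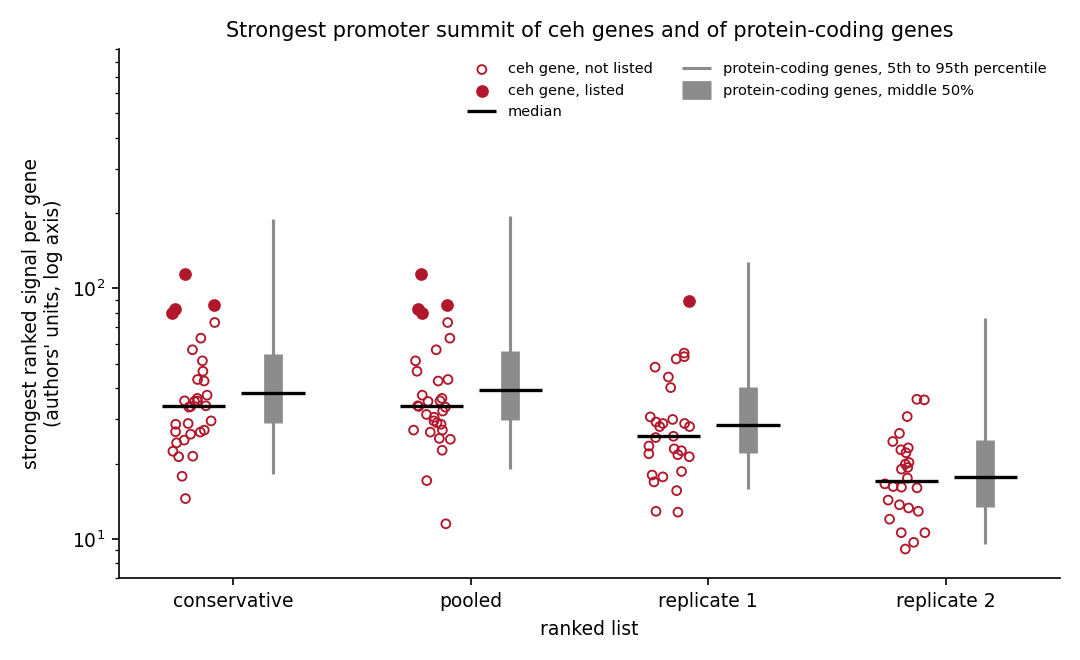
Strongest ranked promoter signal per gene in the 4 lists (vertical, authors' units, log axis), with each ceh gene as a circle (filled where listed) and protein-coding genes as grey bars beside them, black lines marking medians. Over all chromosomes the ceh medians of 34, 33.9, 25.7 and 17 lie below those of protein-coding genes. In replicate 2 the ceh median is the higher within the autosomes (23 ceh genes) and within X (only 3 ceh genes). No ceh gene passes the 95th percentile of protein-coding genes.

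On X, 6 of 18 ceh genes had a ranked summit in the conservative list and 0 were listed, where 9 of 1157 protein-coding genes with a ranked summit were (background 0.778%). On the autosomes 27 of 45 ceh genes had one and 4 were listed (14.8%, background 15.8%). The highest X member was ceh-37, an Otx-type gene of sensory neurons whose product also binds telomeric DNA, with a signal of 43.3 and a rate of 0.668. The summit lay inside the ceh-37 gene, 625 bp upstream of 1 of its 4 transcript starts. It was nearer to the start of C37E2.9, at 69 bp. Next came ceh-18 at 36.4, ceh-90 at 35.6 and ceh-60 at 34. Here ceh-18 is a POU gene that acts in the gonadal sheath to hold oocytes in meiotic arrest, and ceh-60 is a PBC-class gene with a part in vitellogenin expression. These X signals were close to the conservative median for ceh genes.

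**Figure D4:**
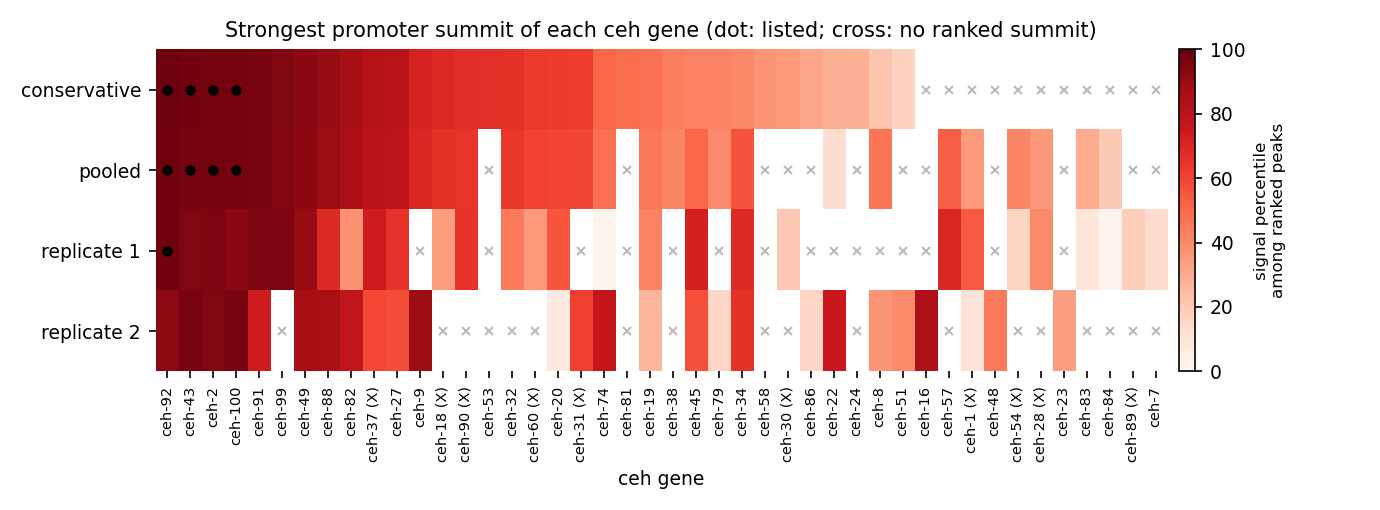
Signal percentile among all ranked peaks (colour) of the strongest promoter summit of the 44 ceh genes with a summit in any list, by list (rows), with dots for listed and crosses for no ranked summit. The 4 listed genes at the left stand at a percentile of 91.8 or higher in every list, ceh-91 falls to 73.8 in replicate 2, and those at the right have no conservative summit.

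By class, the NK and ANTP-like genes had 10 of 17 members ranked and 2 listed in the conservative list, these being ceh-43 and ceh-2. Over all protein-coding genes 52.1% were ranked and 14.2% of those listed, and classes of this size cannot be set apart from that background. Their other members included ceh-27, an NK-2 gene, with a signal of 42.7 and a rate of 0.43, and ceh-22, the worm relative of Nkx2-5 in pharyngeal muscle, at 21.4. The paired-like genes had 4 of 8 ranked and 0 listed, with ceh-37 the highest. CUT genes had 2 of 6 ranked and 0 listed, and these were ceh-49 and ceh-38, at 27.2. In the sine oculis-related class, which acts in head and pharyngeal development, 2 of 3 genes were ranked, ceh-32 at 35.4 and ceh-34 at 26.2. PBC genes, whose products partner with Hox proteins, had 2 of 3 ranked, ceh-60 at 34 and ceh-20 at 33.8. The single Hox gene of the list, ceh-13, and the single LIM gene, ceh-14, had no ranked summit in any of the 4 lists. Genes given no class numbered 22, with 12 ranked and 2 listed, and their highest were ceh-92, ceh-100, ceh-91 and ceh-99.

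Among the genes without a class, ceh-88 had summits 64 and 590 bp upstream, with signals of 51.4 and 43.4 and rates of 0.241 and 0.695. The ceh-82 summit, 673 bp upstream and inside the neighbouring gene ceh-81, had a signal of 46.7 and a rate of 0.673. In its own promoter window ceh-81 had a signal of 28.9 in the conservative list and no ranked summit in the others. Other members of middling signal were ceh-9 at 37.5 and the paired-like gene ceh-53 at 35.5, the second of these found in the conservative list alone.

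Ranked promoter summits were found in all 4 lists for 15 ceh genes, in 3 lists for 11, in 2 for 9 and in 1 for 9. No background over protein-coding genes is given for these counts, and they are not read as particular to ceh genes. The other 19 genes (30.2%) had none in any list, against 30.4% of protein-coding genes. On X 8 of 18 had none (44.4%, against 36.2%), and on the autosomes 11 of 45 (24.4%, against 29.5%). The 19 were ceh-5, ceh-6, ceh-10, ceh-12, ceh-13, ceh-14, ceh-17, ceh-21, ceh-33, ceh-36, ceh-39, ceh-40, ceh-41, ceh-62, ceh-63, ceh-75, ceh-76, ceh-87 and ceh-93. They include several genes that fix neuron types, such as ceh-10 in the AIY interneuron, ceh-14 in thermosensory and other neurons and ceh-36 in the ASE and AWC sensory neurons. Other genes with neuronal roles, ceh-43, ceh-2 and ceh-37, had ranked summits in all 4 lists. The genes without a summit are therefore not read as set apart by role. The CUT genes ceh-21, ceh-39 and ceh-41, which neighbour each other on X, were also among the 19. The other CUT genes analysed had a ranked summit in at least 1 list.

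The replicates ranked promoter summits of 16 ceh genes in common, with 13 genes in replicate 1 alone and 10 in replicate 2 alone. The same gene counts over all protein-coding genes are not given here, so these are not read as particular to ceh genes. The shares below are of peaks. Of 33 ranked peaks of replicate 1 at ceh promoters, 12 (36.4%) overlapped a ranked peak of replicate 2 by at least 1 bp, against 51.5% at all protein-coding promoters. From the side of replicate 2, 13 of 32 (40.6%) overlapped one of replicate 1, against 47.8%. With 50% of each peak in common, 11 of the 33 (33.3%) overlapped, against 39.9%.

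At 15 conservative ceh promoter peaks with a ranked peak in both replicates, which make 13 distinct pairs, the log2 ratio of replicate 1 to replicate 2 signal had a median of 0.54 (SD 0.62), against 0.71 (SD 0.58) over 6245 such peaks at all protein-coding promoters. Signal scales differ between the replicates, so a ratio is read against that median. The ratio was 1.75 at ceh-92, above 96.6% of the 18596 shared peaks genome-wide, promoter or not. It was 1.54 at the stronger, upstream peak of ceh-91, above 92.7% of them. The ceh-91 peak on the transcript start had a ratio of 0.28, above 24.1% of shared peaks genome-wide and below the median. At ceh-20 it was 1.5, at ceh-2 0.79, at ceh-43 0.43 and at ceh-100 0.30, and the lowest was -0.63 at ceh-74. The ceh-92 peak and the upstream ceh-91 peak thus leaned to replicate 1 by more than 1 SD beyond the median, while the start peak of ceh-91 and the other listed members lay within 1 SD. Across the 15 peaks Spearman's rho was 0.588 and Pearson's r on the log2 scale 0.557, against 0.569 and 0.799 over all promoters. Peaks share libraries and a control and are not independent, so no p-value is given.

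**Figure D5:**
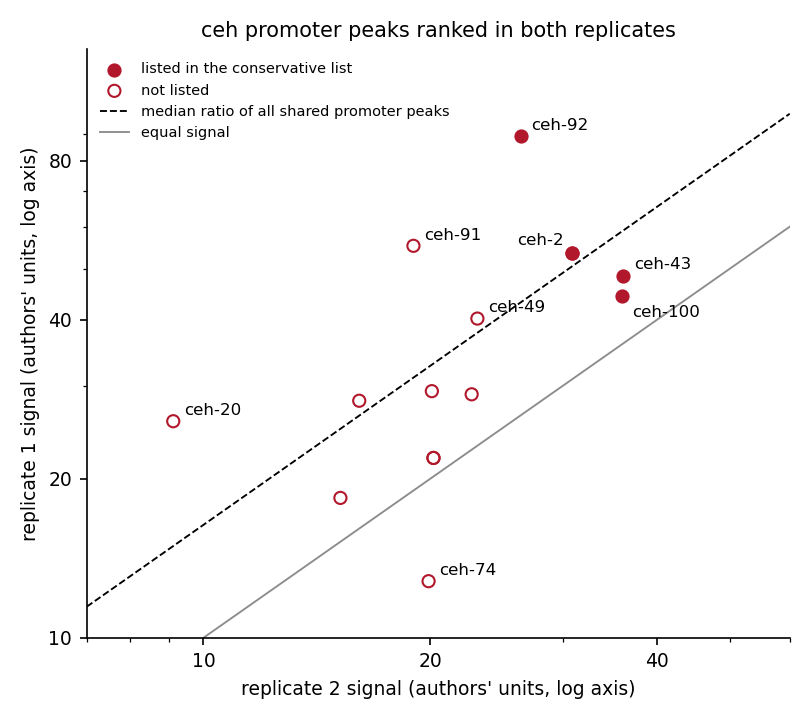
Signal of ceh promoter peaks ranked in both replicates, replicate 1 (vertical) against replicate 2 (horizontal), authors' units on log axes, filled where listed in the conservative list, with the median ratio of all shared promoter peaks dashed and equal signal in grey. Filled points for ceh-2, ceh-43 and ceh-100 lie near or below the dashed line, and ceh-92, the upstream peak of ceh-91 and ceh-20 lie well above it.

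TAAT, the core that many homeodomains prefer, and TAATTA, which contains it on both strands, were counted on both strands. In promoters from 250 bp upstream to 50 bp downstream of the start, TAATTA was in 9 of 63 ceh genes (14.3%), against 15.5% of protein-coding genes and 17.4% of those listed in the conservative list. TAAT was in 93.7% of ceh promoters, against 95.3%. In 101 bp windows centred on the 46 conservative summits of ceh promoters, TAAT was in 21 (45.7%) and TAATTA in 1 (2.17%). The same windows held TAAT in 45.7% of all listed summits and in 52.3% of those not listed, and TAATTA in 2.48% and 3.06%. Of the named members, ceh-43 has TAATTA in its 300 bp promoter, ceh-2, ceh-100 and ceh-91 have TAAT there, and ceh-92 has neither.

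Homeobox genes with other names, such as the LIM, POU and Hox genes known by mutant phenotype, were counted the same way. Of 39 such genes, 18 had a ranked promoter summit in the conservative list (46.2%, against 52.1% of protein-coding genes) and 0 were listed (background 14.2% of ranked). In the pooled list 21 had one (53.8%, against 50%) and 1 was listed (4.76%, background 15.3%). The listed gene was pal-1, the caudal homologue of posterior patterning, with a signal of 73.1, a pooled rate of 0.00784 and a conservative rate of 0.0698. Its signal equalled that of ceh-91 to 3 digits. The POU gene unc-86, a neuron identity factor, had 64.4 at a conservative rate of 0.0195.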

How the data were processed

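ChIP-seq peak lists of 2 biological replicates (1 group) were used as deposited on ce11 (WBcel235), the assembly named in the notes beside the files. Whole-series lists came from both replicates, and replicate lists from 1 replicate each. Of the ranked peaks, 81.1% in the conservative comparison and 0.002% in the other whole-series comparison, called pooled here, had an input with the exact coordinates of a peak in a replicate's ranked list. Signal is a value per peak that the authors deposited, and was used only within a list except where replicates are set side by side. The −log10 of the local and global rates was deposited by the authors and turned back into rates here, while a score capped at 1000 was deposited by the authors and not used for results. The aligner and the peak caller are not given in the sources that were used, and depth is unknown.

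The lists held 1612 listed of 53026 ranked peaks (conservative), 1716 of 50055 (pooled), 1180 of 35497 (replicate 1) and 974 of 37659 (replicate 2). Of peaks at or under a rate of 0.01, the authors left 88, 105, 56 and 108 out of these lists in the same order, with 0 at a ceh promoter. Summits (column 2 plus column 10 of the lists, plus 1) were compared with Ensembl release 115 transcript starts. A summit counted for each gene whose window held it. The assignment was tested on simulated data. Python 3.11.15, pandas 2.3.3, NumPy 2.4.6, SciPy 1.17.1 and matplotlib 3.10.9 were used.

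No test was run: 1 group has nothing to be compared with, and counts stand beside the same over all protein-coding genes. The members, classes and lists were chosen with earlier results of these data known. Genes named with values were ceh-91, each ceh gene listed in any list, the 10 others of highest signal and the 5 of lowest rate in the conservative ranking, those nearest the threshold and those without a summit. Further genes (ceh-20, ceh-22, ceh-32, ceh-34, ceh-38, ceh-74, ceh-81, pal-1 and unc-86) were named after their values were seen, to illustrate classes, replicate ratios and related genes. Of 42 symbols given a class, 41 matched, and ceh-44 was not analysed here. Protein identity between members was planned and not run. Alternatives were the other lists, window sizes, thresholds, gene assignment, tRNA distance and overlap.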

Additional observations from a re-analysis of the deposited data

How the results depend on the processing

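The count of 4 ceh genes with a listed summit stood beside a background of 14.2% of protein-coding genes. It was 3 to 5 under the pooled list, narrower and wider windows and a rate of 0.05. The same held for overlap in place of summit, merged peaks and the nearest protein-coding start. Backgrounds at these settings ran between 11.5% and 17.7%. The count was 0 at a rate of at most 0.001 (background 10.5%). It was 1 when each summit went to the nearest transcript start of any biotype (background 11%). From 1 replicate alone it was 0 to 1: ceh-92 without replicate 2 (background 13.4%), and none without replicate 1 (background 11.2%). The count with no nearer tRNA start, 2 in the conservative list, was 0 to 1 from 1 replicate. The median signal, 34, was 17 to 25.7 from 1 replicate, whose signal has its own scale. Leaving out replicate 1 or replicate 2 took ceh-2, ceh-43 and ceh-100 over the rate of 0.01, and leaving out replicate 1 did so for ceh-92. The other 22 recomputed group values moved by less than 1.5 times or stayed on their side of the threshold. No paired analysis was possible because there is 1 group. The cause of these shifts was not tested.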

Other observations

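The ceh-92 and ceh-91 genes lie 27613 bp apart on chromosome III. Between 1000 bp before the ceh-92 start and the end of ceh-91, 9 conservative ranked peaks had a ranked peak in both replicates. Their log2 ratio of replicate 1 to replicate 2 signal had a median of 0.87 and ran between -0.26 and 1.75, against a median of 0.70 over 18596 such peaks genome-wide, and 6 of the 9 lay above that median. The stretch was chosen after the ratios of the ceh-92 and ceh-91 promoters had been seen, and those promoter peaks are themselves among the 9. The counts are therefore a description only.

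In the conservative list, 12 of the 33 ceh genes with a ranked summit had more than 1, and at 6 genes ranked peaks overlapped each other. No background over protein-coding genes is given for these 2 counts, and they are not read as a trait of ceh genes. Listed ceh summits lay 3 to 775 bp upstream of the start by each gene's strongest peak, with a median of 438 bp over 4 genes, 2 of them with the summit on a tRNA gene, against 260 bp over all 1473 listed protein-coding genes. Unlisted summits of that list lay the other way, at a median of 156 bp over 30 ceh genes, against 335 bp over 9619 protein-coding genes. The 30 include ceh-43, through its second peak. For unlisted summits the order was not the same in every list. The medians were 229 against 332 bp in the pooled list, 457 against 319 bp in replicate 1 and 290 against 326 bp in replicate 2.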
